A study of Vitis riparia with 12 samples.

Results

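The beta-xylosidase gene BXL1 and an FtsH protease gene of Vitis riparia were followed across the root and shoot tips of water-stressed and watered vines. VIT_05s0077g01280 is annotated as the glycosyl hydrolase family 3 beta xylosidase BXL1, and VIT_14s0108g00590 as an FtsH protease. They are 2 of the 29966 genes in the count tables. Both were chosen by their values in the shoot libraries, as the largest rises under water deficit among genes with a functional annotation and at or above the median level of the genes tested in shoot. Their own differences between the shoot groups are therefore given as a description, with no test, and the comparison in root is the one that the choice did not use.

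The vines were potted and spur-pruned V. riparia grown in a greenhouse under a long photoperiod. Water deficit (WD) vines received no water for 14 d, and well-watered control (C) vines received tap water every day. The 4 groups were the root of WD vines (WD root), that of C vines (C root), the shoot of WD vines (WD shoot) and that of C vines (C shoot), with 3 libraries in each, and each replicate combined 3 vines. All 4 groups came from a single greenhouse experiment at a single time. The study's descriptions give different lengths for the root tips that were collected. A library holds many cell types, so fewer cells of a type and less RNA per cell cannot be told apart.

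BXL1 proteins are secreted enzymes of the plant cell wall. In Arabidopsis, the enzyme of that name removes terminal xylose and arabinose from wall polysaccharides such as xylan and arabinan, and its loss alters secondary walls and seed coat mucilage. FtsH proteases are membrane-bound, ATP-dependent metalloproteases of chloroplasts and mitochondria. The thylakoid forms, of which VAR2 is the best known in Arabidopsis, degrade damaged photosystem II proteins during repair. The annotation does not say to which organelle the product of VIT_14s0108g00590 goes.

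In the PN40024 12X V1 assembly of Vitis vinifera, to which the reads were aligned, BXL1 lies on chromosome 5 from 1049443 to 1054222. The FtsH gene lies on chromosome 14 from 29333100 to 29335806. These are the whole extents of the gene models in the deposited tables, and exons, introns and untranslated regions within them were not used here. Reads of V. riparia that differ from V. vinifera, or that align to more than 1 place, may be missing from the counts of either gene.

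The libraries held from 14376065 to 22800079 reads on genes in root and from 17429395 to 27769527 in shoot. The organ labels were checked against 26 genes that the study's tables place in photosynthesis, of which 24 were higher in shoot. Their summed level lay between 6003 and 9643 RPKM in WD shoot, 4891 and 8677 RPKM in C shoot, 113 and 185 RPKM in WD root, and 71.2 and 93.3 RPKM in C root. Over all genes, edgeR's quasi-likelihood test called 0 of 19545 genes (0%) between WD root and C root at a Benjamini-Hochberg adjusted p under 0.05. In the same contrast 1771 genes (9.06%) had an unadjusted p under 0.05, and DESeq2 called 441. Between WD shoot and C shoot it called 5301 of 19569 genes (27.1%). Of these, 2563 were higher (13.1%) and 2738 were lower (14%) in WD shoot.

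BXL1 was abundant in root whether or not the vines were watered. Levels are given in RPKM, read density scaled by the length of the gene model and by the mapped reads of the library, as the authors deposited them in a separate table for each organ. BXL1 stood at 38.3, 16.2 and 21.2 RPKM in WD root, against 41.9, 22.03 and 11.3 RPKM in C root. The ranges of the 2 groups overlapped almost wholly, and the highest and the lowest of the 6 libraries were both C libraries. Between 87.3 and 96.2% of all genes had a lower RPKM in the root libraries.

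The mean level was 25.2 ± 11.6 RPKM in WD root and 25.1 ± 15.5 RPKM in C root (SD, n = 3 each). The log2 fold change of WD root over C root (log2FC) was 0.026 with an SE of 0.51, and its adjusted p was 0.987 by edgeR's quasi-likelihood test with Benjamini-Hochberg adjustment. The 95% interval of the log2FC ran from -1.20 to 1.26, which is 0.434-fold to 2.39-fold. The interval does not separate a change within these bounds from none. It is not a limit of detection, since 0 of 19545 genes were called in this contrast. Of the 9 ways to set a WD library against a C one, WD had the higher level in 4. The root groups stood without overlap for 15.1% of the genes tested (8.18% with WD higher and 6.95% with WD lower), and BXL1 was not among them.

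In shoot the same gene was among the more abundant transcripts in water-stressed vines, and it was low in watered vines, at a mid-range level among all genes. Its level was 48.3, 26.2 and 83.2 RPKM in WD shoot, against 0.364, 1.75 and 0.271 RPKM in C shoot. The reads behind these values were 6417, 3880 and 9837 in WD shoot and 53, 348 and 43 in C shoot. All 3 WD libraries lay far above all 3 C libraries, and C shoot replicate 2 stood apart from its group as the highest.

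The mean level in shoot was 52.6 ± 28.8 RPKM in WD and 0.794 ± 0.827 RPKM in C (SD, n = 3 each), a ratio of 66.2. The lowest WD library was 15.0 times the highest C library. The log2FC was 6.14 (SE 0.95), and 7.53 without C shoot replicate 2. Between 94.0 and 98.1% of genes had a lower RPKM in the WD shoot libraries, against 35.3 to 57.7% in the C shoot libraries. The groups stood without overlap for 50.1% of all genes tested in shoot.

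Set across organs, C shoot was the group that stood apart for BXL1. C root was 31.6 times C shoot by mean RPKM and higher in 9 of 9 pairs of libraries. WD shoot was 2.08 times WD root and higher in 8 of 9 pairs, but these groups overlapped. The order by mean level was thus WD shoot, WD root, C root and C shoot, and neighbours in that order overlapped except for the last step. The root and shoot tables were normalized separately, and the authors extracted root and shoot RNA by different methods. Organ cannot be told apart from these steps, and these ratios carry no test.

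**Figure D1:**
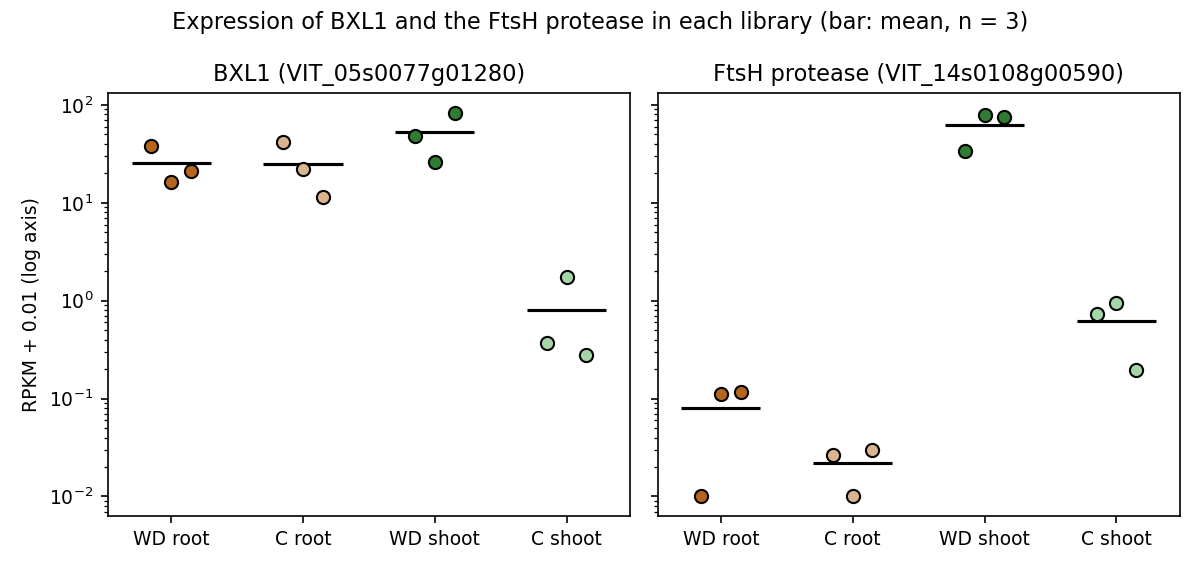
Expression of BXL1 (left) and the FtsH protease (right) in each library, as RPKM plus 0.01 on a log axis, with both root groups and then both shoot groups along the horizontal axis, WD left of C. Points are libraries and bars are the means of 3. For BXL1 the C shoot libraries (0.271 to 1.75 RPKM) lie below the other groups, and for the FtsH protease the WD shoot libraries (33.6 to 79.4 RPKM) lie above them.

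The FtsH protease was near the limit of detection in root in both groups. The reads counted were 0, 6 and 11 in WD root, against 1, 0 and 2 in C root. These correspond to 0, 0.102 and 0.107 RPKM in WD root and 0.0167, 0 and 0.0200 RPKM in C root. One library of each group had no read, which allows up to 3 reads in such a library, and the groups overlapped.

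The gene fell below the expression filter of the root fit and was compared by its counts. WD root held 17 reads and C root 3, a ratio of read rates of 5.76 with an exact 95% interval of 1.66 to 30.7 that covers counting error only. Between libraries, an exact two-sided permutation test of the mean library-scaled count (CPM), 0.261 in WD root and 0.0609 in C root, gave p = 0.4, where 3 against 3 libraries cannot give less than 0.1. WD was higher in 6 of 9 pairs. The summed photosynthesis genes were also higher in WD root, where their range lay above that in C root. Of these 26 genes, 10 were listed from the study's root calls, so their direction was partly set by the listing. The part of these genes in the few FtsH reads was not tested.

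In shoot the FtsH protease was also low in watered vines, and it was among the more abundant transcripts in water-stressed vines. Its level was 33.6, 79.4 and 75.0 RPKM in WD shoot, against 0.718, 0.932 and 0.187 RPKM in C shoot. The reads were 2719, 6779 and 5310 in WD shoot and 59, 100 and 14 in C shoot. The groups did not overlap, as for 50.1% of all genes tested in shoot. WD shoot replicate 1 was the lowest of its group and C shoot replicate 3 the lowest of the other.

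The mean was 62.7 ± 25.2 RPKM in WD shoot and 0.612 ± 0.383 RPKM in C shoot (SD, n = 3 each), a ratio of 102. The lowest WD library was 36.1 times the highest C library, and the log2FC was 6.92 (SE 0.73). In WD shoot 95.1 to 98.2% of genes had a lower RPKM. The highest root library, at 0.107 RPKM, was below the lowest C shoot library, at 0.187 RPKM. For this gene WD shoot was therefore the group that stood apart. The order by mean was WD shoot, C shoot, WD root and C root, with overlap only between the root groups. C shoot and WD root were separated by few reads, 14 in C shoot replicate 3 against 11 in WD root replicate 3. As for BXL1, organ cannot be told apart from the separate normalization and RNA extraction, and this order carries no test.

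Within WD shoot the order of the libraries differed between the 2 genes. The ratio of BXL1 to FtsH RPKM was 1.44, 0.330 and 1.11 in WD shoot replicates 1, 2 and 3. WD shoot replicate 2 had the lowest BXL1 level and the highest FtsH level of its group. In C shoot the order was the same for both, with replicate 2 the highest and replicate 3 the lowest.

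Among the 1595 genes eligible by the rule of the choice (called, without overlap, and at or above the median level in shoot), the FtsH protease had the largest log2FC, 6.92, and BXL1 the next, 6.14. The values just outside were 6.14 for VIT_05s0020g00840, which had no annotation hit, and 5.24 for VIT_03s0038g01510, of unknown function. The next annotated gene was the galactinol synthase VIT_01s0127g00470, an enzyme of raffinose synthesis, at 5.24. BXL1 and the first gene outside thus hardly differed in size. Annotated genes under the median level could have a larger log2FC, as had the galactinol synthase VIT_05s0020g00330, at 7.996, and the cellulase VIT_02s0025g00430, at 6.45.

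The levels of the chosen genes were set beside other genes of the same kinds in the study's tables of differentially expressed genes. Those tables were made from these libraries, and the shoot table is held here only in part, so the direction of the listed genes is not independent evidence and the families are not complete. The other beta-xylosidases were listed from the study's root calls, and the other FtsH proteases and the Clp proteins from its shoot calls. The alpha-L-arabinofuranosidases came from both. Counts of shoot calls and shares of summed levels can therefore not be compared between these lists.

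The other listed beta-xylosidases did not share the pattern of BXL1. Of 3 listed genes, all tested in shoot, 0 were called higher and 1 was called lower, beside 13.1% and 14% of all genes, and their median log2FC was -2.16, against -0.019 over all genes. The one called was the beta-D-xylosidase VIT_12s0121g00230, at 2.77, 0.999 and 0.440 RPKM in WD shoot, against 11.4, 9.76 and 6.93 RPKM in C shoot. Its log2FC was -2.76 (SE 0.76), with an adjusted p of 0.0401 by edgeR's quasi-likelihood test.

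With 1 shoot library left out its log2FC lay between -3.93 and -2.25, lower in WD shoot in all 6 fits. The call was kept without WD shoot replicate 1 and lost without any 1 of the other 5 shoot libraries, where the highest adjusted p by edgeR was 0.133, without WD shoot replicate 2. The xylan 1,4-beta-xylosidase VIT_12s0121g00380 had a log2FC of -2.16 with an edgeR adjusted p of 0.123, and the groups did not overlap. VIT_03s0091g00810, annotated as a beta-1,4-xylosidase, had a log2FC of 0.20 in shoot (edgeR adjusted p 0.733).

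BXL1 was a minor share of the listed beta-xylosidase transcripts in watered shoots and nearly the whole of them in water-stressed shoots. It made up 87.8, 90.7 and 95.9% of the RPKM summed over the 4 genes in WD shoot, against 1.85, 9.60 and 2.21% in C shoot. The other 3 genes together stood between 2.69 and 6.72 RPKM in WD shoot and between 12.0 and 19.3 RPKM in C shoot. The share combines the difference by which BXL1 was chosen with the levels of the others, and it carries no test.

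In root BXL1, VIT_12s0121g00230 and VIT_12s0121g00380 all stood above VIT_03s0091g00810 by mean level. The share of BXL1 was 38.6, 26.7 and 41.8% in WD root, against 35.5, 22.5 and 13.2% in C root. VIT_12s0121g00230 stood at 30.7, 26.2 and 17.2 RPKM in WD root, against 46.6, 46.3 and 47.1 RPKM in C root. VIT_12s0121g00380 stood at 17.1, 13.6 and 8.93 RPKM in WD root, against 25.9, 24.4 and 25.2 RPKM in C root. For both genes the C root libraries were nearly equal to each other and all WD root libraries lay below them, as for 6.95% of genes. Neither passed the test (log2FC -0.83 and -0.92, adjusted p 0.396 and 0.408 by edgeR's quasi-likelihood test). VIT_03s0091g00810 had the other direction, with overlap, at 13.0, 4.71 and 3.41 RPKM in WD root, against 3.67, 5.17 and 2.24 RPKM in C root. Its log2FC was 1.07 (edgeR adjusted p 0.669).

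**Figure D2:**
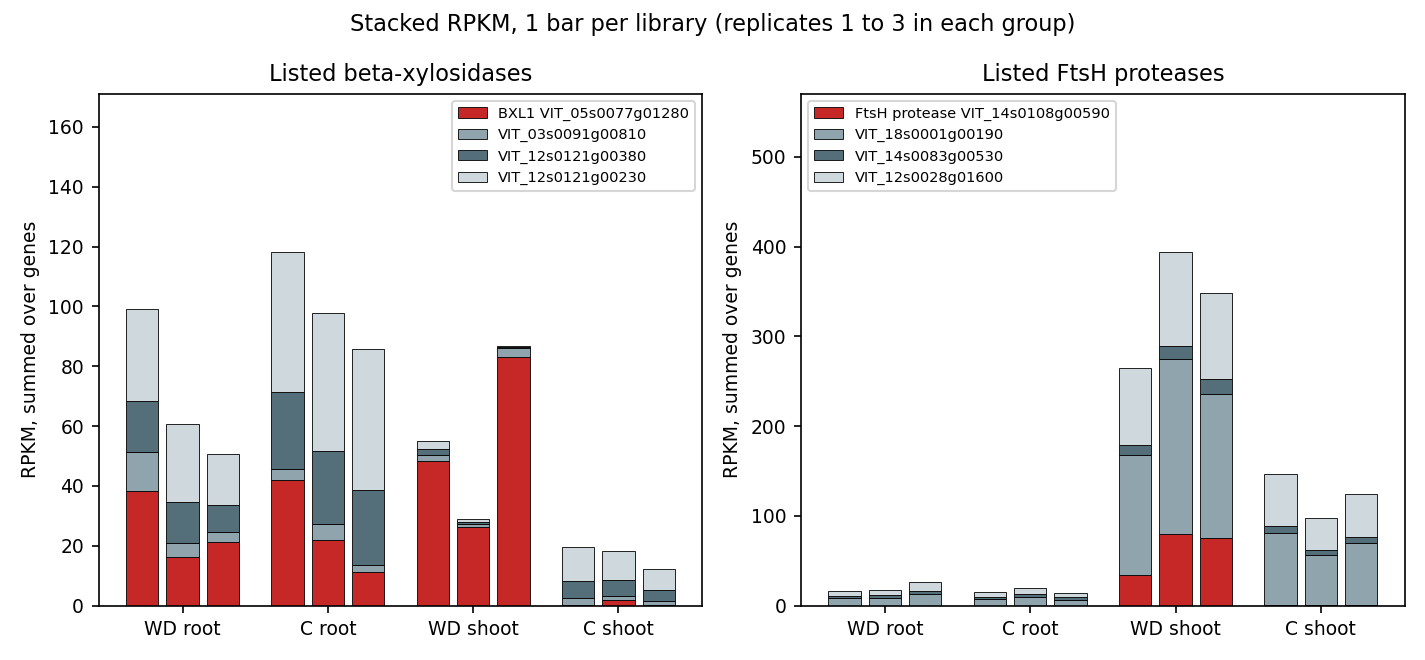
RPKM of the 4 listed beta-xylosidases (left) and the 4 listed FtsH proteases (right), stacked in 1 bar per library, with WD left of C in each organ. BXL1 and the FtsH protease VIT_14s0108g00590 are in red. BXL1 fills 87.8 to 95.9% of the bar in WD shoot, against 1.85 to 9.60% in C shoot, and VIT_14s0108g00590 fills 12.7 to 21.5% in WD shoot, against 0.151 to 0.951% in C shoot.

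The listed alpha-L-arabinofuranosidases, which remove arabinose side chains from the same wall polysaccharides, were mixed. Of 3 tested in shoot, 1 was called higher and 0 lower, beside 13.1% and 14% of all genes, with a median log2FC of -1.09, against -0.019 over all genes. VIT_08s0040g00320 averaged 11.5 ± 5.28 RPKM in WD shoot and 5.52 ± 0.975 RPKM in C shoot (SD, n = 3 each), with a log2FC of 1.18 (edgeR adjusted p 0.0474), and the call was kept only without WD shoot replicate 1 among the 6 fits that left out a library. In those fits its log2FC lay between 0.70 and 1.42. VIT_08s0032g00890 and VIT_12s0055g01180, annotated as alpha-L-arabinosidases, had log2FC of -1.09 and -1.98 in shoot and did not pass the test. Without WD shoot replicate 1 both were called lower, with log2FC of -2.06 and -3.37 (edgeR adjusted p 0.0278 and 0.00959). With any other shoot library left out neither was. In root they had log2FC of -1.32 and -1.30, and neither passed the adjusted threshold. Both stood without overlap of the groups, as for 6.95% of all genes with WD lower, and both were listed from the study's root calls.

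The 3 other listed FtsH proteases were all called higher in WD shoot, beside 13.1% of all genes. Their listing from the study's shoot calls made this likely. Their log2FC were much smaller than that of VIT_14s0108g00590, which was chosen for its size. VIT_18s0001g00190 was at 135, 196 and 161 RPKM in WD shoot, against 80.2, 55.6 and 69.2 RPKM in C shoot. VIT_12s0028g01600, annotated as VAR2, was at 86.1, 104 and 96.5 RPKM in WD shoot, against 58.3, 36.4 and 47.8 RPKM in C shoot. VIT_14s0083g00530 was at 11.01, 14.0 and 16.4 RPKM in WD shoot, against 7.79, 5.02 and 6.89 RPKM in C shoot. All 3 genes were already well expressed in watered shoots, unlike VIT_14s0108g00590.

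Their log2FC were 1.41 (VIT_18s0001g00190), 1.13 (VIT_12s0028g01600) and 1.24 (VIT_14s0083g00530), with adjusted p of 0.0138, 0.0260 and 0.0163 by edgeR's quasi-likelihood test. The count of 3 called became 0 when C shoot replicate 3 or WD shoot replicate 2 was left out, where 632 and 713 genes were called in all, and 2 when C shoot replicate 2 or WD shoot replicate 3 was. Over the 6 fits that left out a library, their log2FC lay between 1.26 and 1.60 for VIT_18s0001g00190, 0.93 and 1.37 for VIT_12s0028g01600, and 1.05 and 1.42 for VIT_14s0083g00530. In root their log2FC lay at 0.36, 0.30 and 0.020, and 0 were called, as 0 of 19545 genes were in root. All of them were expressed in root, at 9.89, 6.62 and 3.23 RPKM on average in WD root and 7.70, 5.34 and 3.13 RPKM in C root, where VIT_14s0108g00590 was nearly absent.

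By level, VIT_14s0108g00590 took 12.7, 20.2 and 21.5% of the RPKM summed over the 4 listed FtsH genes in WD shoot, against 0.488, 0.951 and 0.151% in C shoot. Its share was at most 0.576% in any root library. The other 3 genes summed to between 232 and 314 RPKM in WD shoot and between 97.0 and 146 RPKM in C shoot. The listed others together thus exceeded VIT_14s0108g00590 in every WD shoot library, whereas BXL1 exceeded its listed others there.

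Of 3 listed plastid Clp proteins, which act on proteins in the chloroplast stroma, 2 were called higher in WD shoot and 0 lower, beside 13.1% and 14% of all genes. These genes too were listed from the study's shoot calls. Their median log2FC was 1.80, against -0.019 over all genes. ClpS, the adaptor that brings substrates to the protease (VIT_17s0000g04020), averaged 5.62 ± 0.0609 RPKM in WD shoot and 1.94 ± 0.126 RPKM in C shoot (SD, n = 3 each). CLPB3, a chaperone that dissolves protein aggregates (VIT_14s0108g01500) averaged 30.1 ± 6.20 RPKM in WD shoot and 8.90 ± 0.536 RPKM in C shoot (SD, n = 3 each). Their log2FC were 1.80 and 1.81, with adjusted p of 0.00731 and 0.00897 by edgeR's quasi-likelihood test, and both stayed called with any 1 shoot library left out. The ATP-binding subunit CD4B (VIT_17s0000g00340) had a log2FC of 0.97 and an edgeR adjusted p of 0.0562. It was called only without C shoot replicate 1 (log2FC 1.24, edgeR adjusted p 0.0294). None of the 3 was called in root, as 0 of 19545 genes were there.

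**Figure D3:**
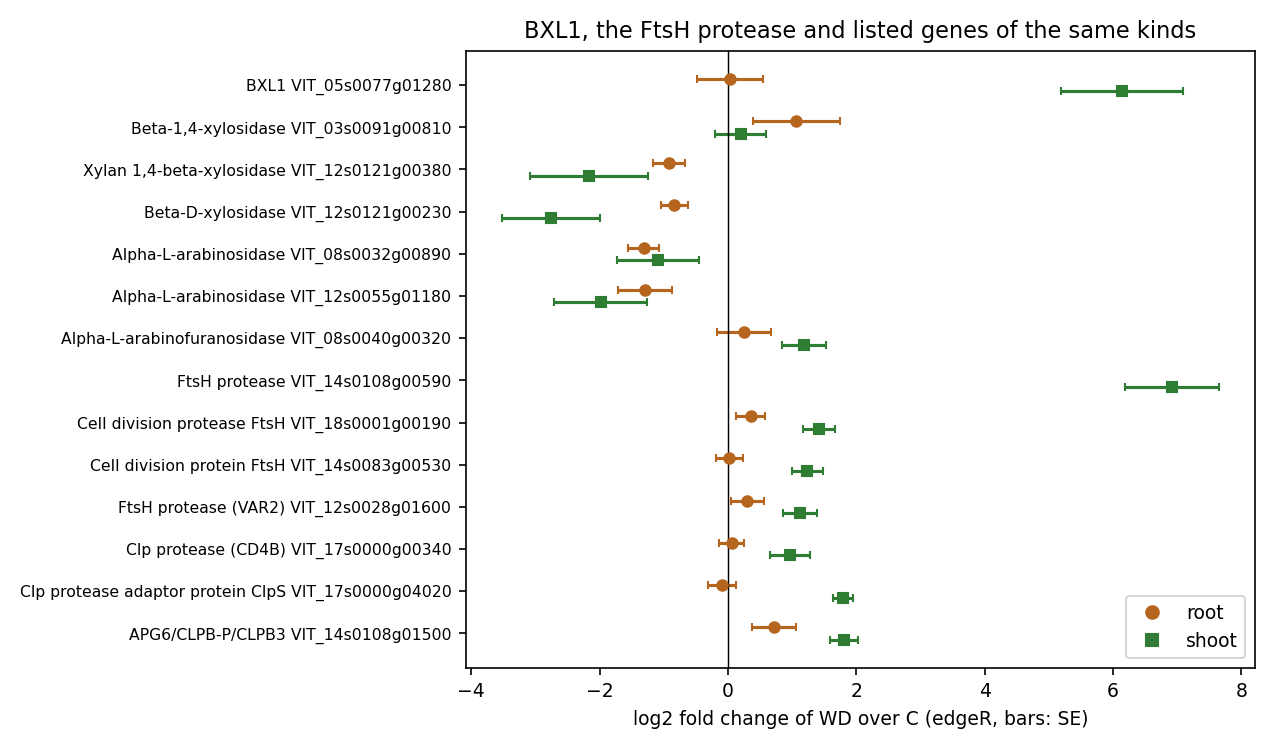
log2FC of WD over C with its SE in root (circles) and shoot (squares) for BXL1, the FtsH protease and the listed genes of the same kinds. The shoot values by which BXL1 (6.14) and the FtsH protease (6.92) were chosen lie far to the right of the listed genes. The listed genes range from -2.76 to 1.81. The FtsH protease has no root value because it was below the filter.

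Wider lists from the same tables were read in the same way. Of 85 listed cell wall genes, 79 were tested in shoot, of which 35 were called higher and 16 lower, beside 13.1% and 14% of all genes, with a median log2FC of 0.83, against -0.019 over all genes. These counts were 5 and 2 without C shoot replicate 3, where 632 genes were called in all, and 6 and 0 without WD shoot replicate 2, where 713 were. Of the 45 genes tested in shoot that came from the root table, 11 were called higher and 16 lower, with a median log2FC of -1.17. The rest were listed from the study's shoot calls alone, which made a shoot call likely. The median over the whole list is therefore partly set by the listing. Of 26 photosynthesis genes, 25 were tested in shoot, 2 were called higher and 1 lower, beside the same 13.1% and 14% of all genes, with a median log2FC of 0.91. With C shoot replicate 1 left out, 9 were called higher. Of the 10 photosynthesis genes listed from the root table, 1 was called higher and 1 lower in shoot, with a median log2FC of 0.33. The rest were listed from the study's shoot calls, so their shoot direction is not independent of the listing.

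The chromosomal neighbours of the 2 genes had smaller shoot changes, which the choice of the 2 by the size of their rise made likely. Within 50 kb of BXL1 lay 11 other genes, none of them overlapping it, and the 8 tested in shoot had log2FC from -1.77 to 0.55. The nearest on each side were VIT_05s0077g01270, an acyl-activating enzyme 5979 bases away, with a shoot log2FC of 0.026, and VIT_05s0077g01290, 4225 bases away, with -0.33. Of the 8, VIT_05s0077g01260 was called higher (log2FC 0.55, edgeR adjusted p 0.0490) and 0 were called lower, beside 13.1% and 14% of all genes. The call was lost with any 1 shoot library left out, with log2FC between 0.43 and 0.63. None of the 10 tested in root was called, as 0 of 19545 genes were in root.

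Within 50 kb of the FtsH gene lay 16 other genes, none overlapping, of which 8 were tested in shoot, with log2FC from -1.94 to 1.85. Of the 8, 1 was called higher and 1 lower, beside 13.1% and 14% of all genes. The nearest after the FtsH gene, at 1719 bases, was the pentatricopeptide repeat gene VIT_14s0108g00600, of a family that processes organelle RNA. It had 243 reads in WD shoot and 93 in C shoot, with a log2FC of 1.85 (SE 0.33) and an edgeR adjusted p of 0.0143. The call was lost when C shoot replicate 3 was left out (edgeR adjusted p 0.0535) and when WD shoot replicate 2 was (edgeR adjusted p 0.0572), with log2FC of 2.02 and 1.74. In those fits 632 and 713 genes were called in all. VIT_14s0108g00580, 2019 bases before the gene, had a shoot log2FC of 0.30 and was not called, and VIT_14s0108g00560 was called lower (log2FC -1.77, edgeR adjusted p 0.0257), on 20 reads in WD shoot and 96 in C shoot. The lower call was kept in 2 of the 6 fits that left out a shoot library, those without C shoot replicate 1 and without WD shoot replicate 1, and the log2FC lay between -1.94 and -1.48 over the 6. None of the 6 neighbours tested in root was called, as 0 of 19545 genes were in root.

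**Figure D4:**
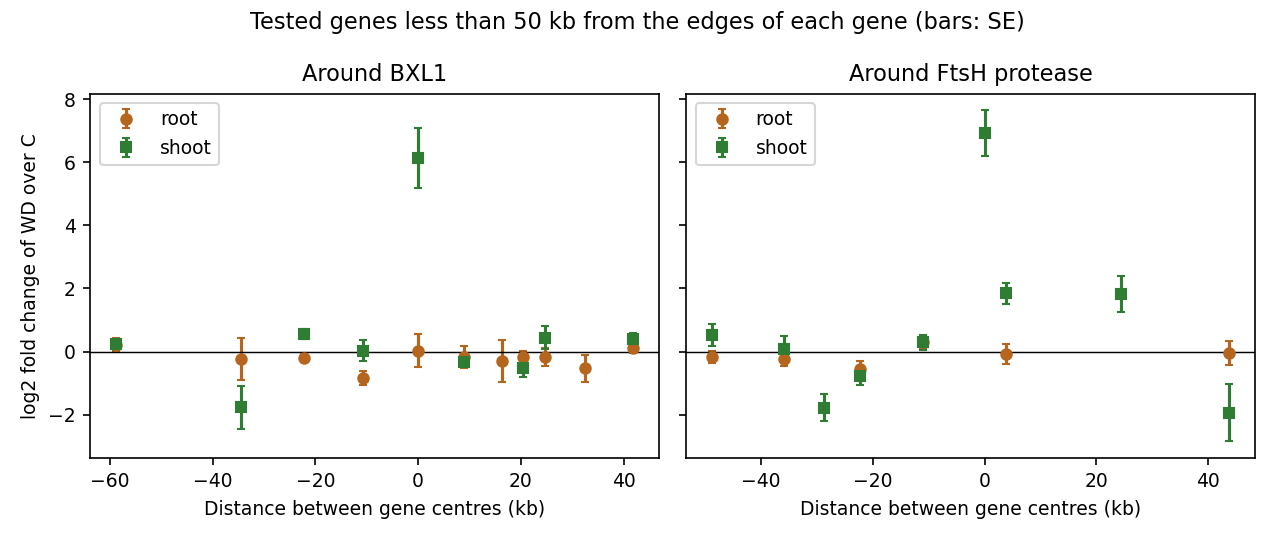
log2FC of WD over C with its SE in root (circles) and shoot (squares), against the distance in kb between the centre of each tested gene and the centre of BXL1 (left) or the FtsH protease (right), for genes whose edges lie within 50 kb. The 2 genes at distance 0, chosen for the size of their shoot rise, stand at 6.14 and 6.92 in shoot. Their tested neighbours lie between -1.94 and 1.85.

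Other genes were ranked by how closely their profile over the 12 libraries followed each of the 2. The measure was the root mean square (RMS) difference of log2(CPM + 0.5) after each gene was centred on its own mean, over 21266 genes, and it is a description with no test. The profiles nearest to BXL1 were those of the tropinone reductase VIT_13s0019g02180 (RMS difference 0.84), PMR5 VIT_12s0028g01360 (0.97), the basic endochitinase VIT_03s0038g03400 (1.07), VIT_05s0020g01830 of the UPF0497 family (1.09) and the alanine-glyoxylate aminotransferase VIT_08s0058g00930 (1.11). The median over all genes was 2.63. All 5 had their lowest mean in C shoot. The endochitinase, for example, averaged 285 RPKM in WD root, 132 RPKM in C root, 179 RPKM in WD shoot and 9.28 RPKM in C shoot.

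The profiles nearest to the FtsH protease were those of VIT_00s0194g00180, an unknown protein (RMS difference 0.78), the chloroplast heat shock protein 26a VIT_16s0098g01060 (1.08), the seed maturation protein PM31 VIT_18s0001g01570 (1.10), the polyphenol oxidase VIT_03s0038g04730 (1.17) and VIT_05s0020g00840, without annotation (1.17). The median was 3.66. The nearest, VIT_00s0194g00180, had a larger shoot log2FC than the FtsH protease, 7.75 against 6.92. It was not among the 1595 genes eligible by the rule of the choice. All 5 were highest in WD shoot, and the chloroplast heat shock protein averaged 102 RPKM in WD shoot and 2.58 RPKM in C shoot, against 1.81 RPKM in WD root and 0.358 RPKM in C root. BXL1 and the FtsH protease differed from each other by 3.70, which placed BXL1 at rank 11295 among the genes nearest to the FtsH protease and the FtsH protease at rank 20170 among those nearest to BXL1.

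**Figure D5:**
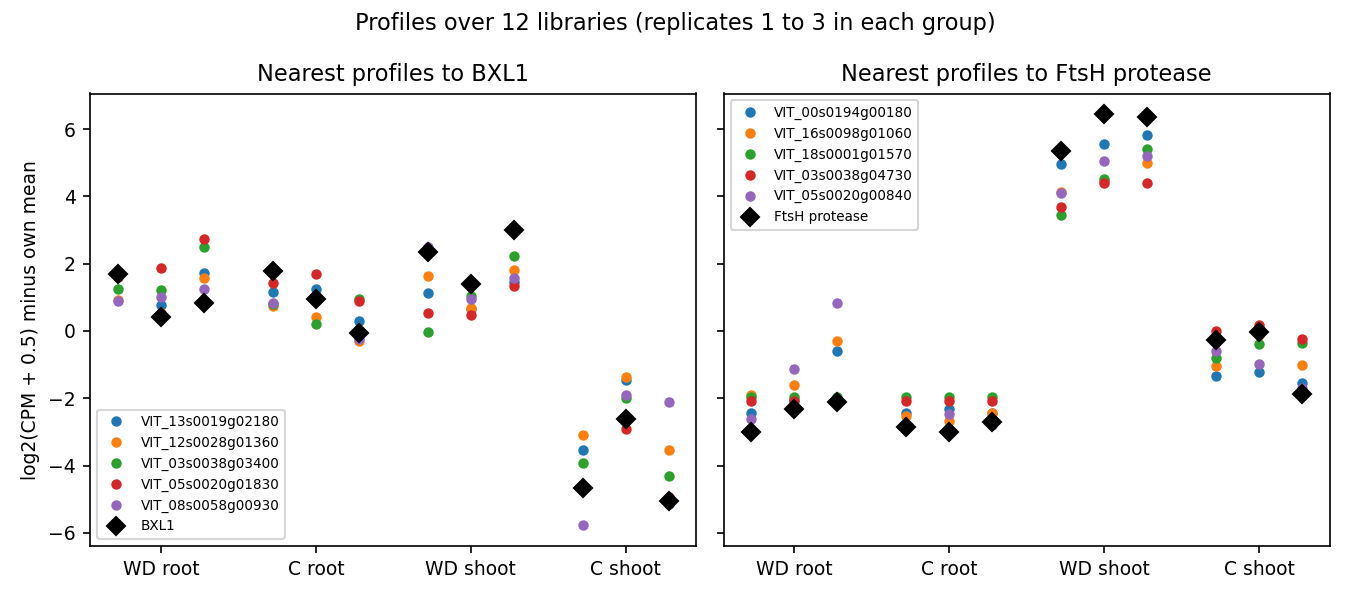
Profiles of the 5 genes nearest to BXL1 (left) and to the FtsH protease (right), as log2(CPM + 0.5) minus the gene's own mean over the 12 libraries, with 1 point per library and WD left of C in each organ. Black diamonds are BXL1 and the FtsH protease. The genes near BXL1 are low in C shoot alone, and those near the FtsH protease are high in WD shoot alone.

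The genes called higher in WD shoot were searched for the pattern of either gene across organs, by limits set after their values were seen. The shares over all genes were not computed, and the counts include BXL1 and the FtsH protease themselves. Of the 2563, 113 (4.41%) had a mean RPKM in C root at least 10 times that in C shoot, as BXL1 had, and 88 of these were also within 2-fold between WD root and C root. The basic endochitinase and the tropinone reductase were among the 113. Another 26 (1.01%) were under 0.1 RPKM in both root groups and at least 10 RPKM in WD shoot, as the FtsH protease was. These limits set no bound on C shoot, where the FtsH protease averaged 0.612 RPKM. These 26 included the seed maturation protein PM31, the galactinol synthase VIT_05s0020g00330 (23.04 RPKM in WD shoot and 0.0913 RPKM in C shoot) and the dehydration-responsive gene RD22 VIT_04s0008g03930 (1644 RPKM in WD shoot and 385 RPKM in C shoot).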

How the data were processed

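RNA from 12 libraries was sequenced by the authors as single-end reads, which they cleaned with Prinseq and aligned with TopHat2 2.0.8 on a Bowtie2 2.1.0 index of V. vinifera PN40024 12X V1. The authors deposited raw counts per gene from htseq-count, without normalization, and RPKM values per library from Cufflinks (the version is given differently in the paper and the labels). The deposited Cuffdiff comparisons of WD with C were not used. Groups came from the sample labels, and nothing marks replicates as separate cultures beyond their 3 vines each.

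Count lines that name no gene (23.5 to 30.9% of reads) were left out, and 0 columns could not be assigned. Counts were filtered (filterByExpr), scaled by TMM and tested within each organ with edgeR 4.0.16 in R 4.3.3 by the robust quasi-likelihood test, two-sided, with Benjamini-Hochberg adjustment at 0.05 over all genes tested. The SE is the log2FC over the square root of the F statistic. The planned root test of the FtsH protease was replaced by an exact permutation test, because the gene fell below the filter. The code was tested on simulated data. Libraries of a group differed beyond sampling noise (chi-square over its degrees of freedom, 23.5 to 173).

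Genes and lists were chosen with earlier results of these data known. Named genes were BXL1 and the FtsH protease, the members of the lists, the 5 nearest profiles of each, their chromosomal neighbours and the 5 largest shoot rises. Neighbours beyond the nearest were named because they were called, and pattern examples after their values were seen. Alternatives were DESeq2 1.42.0, upper-quartile scaling, total counts, no filter, a minimum of 10 counts per library, a block for the replicate number, a model over all 12 libraries, limma 3.58.1 on log2 RPKM with a pseudocount of 1 or 0.1, and each library left out. Leaving libraries out for listed and neighbouring genes was added after the data were seen.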

Additional observations from a re-analysis of the deposited data

How the results depend on the processing

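The root log2FC of BXL1 changed sign with the libraries used and passed the adjusted threshold under none of 15 alternatives. It was -0.044 without C root replicate 2, -0.33 without C root replicate 3 and -0.41 without WD root replicate 1. Leaving out 1 root library gave -0.41 to 0.56, and the adjusted p by edgeR, DESeq2 or limma lay between 0.671 and 1. The shoot log2FC of BXL1 was 4.84 and that of the FtsH protease 5.24 with limma on log2(RPKM + 1), where the pseudocount compresses low levels. With 1 shoot library left out they lay between 5.73 and 7.53 for BXL1 (highest without C shoot replicate 2) and between 6.46 and 7.39 for the FtsH protease. The difference in mean root CPM of the FtsH protease, 0.201, was 0.1001 to 0.331 with 1 root library left out. Its log2FC in root without a filter was 2.17 (edgeR adjusted p 0.697), and other alternatives were not run for it. Among single genes that were not called, 2 changed sign in shoot with 1 library left out, VIT_03s0091g00810 between -0.037 and 0.42 and VIT_05s0077g01270 between -0.12 and 0.34.

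The count of genes called in root was 0 in all fits that left out a library, 11 with all 12 libraries in a single model and 441 with DESeq2. In shoot it lay between 632 (without C shoot replicate 3) and 6115 (without WD shoot replicate 1) when 1 library was left out, with 713 without WD shoot replicate 2, 2465 without C shoot replicate 2 and 2812 without WD shoot replicate 3, and it was 7413 with DESeq2. Higher calls were 48.3% of all shoot calls with TMM, 37.8% with total counts (median log2FC -0.12), and 34.5 and 35.0% with limma on log2(RPKM + 1) and log2(RPKM + 0.1). The cause of these shifts was not tested.

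Correlations between the deviations of same-numbered WD and C libraries were -0.016, -0.13 and -0.45 in root and 0.15, -0.11 and 0.063 in shoot. Libraries of unlike number reached 0.50 in root and 0.23 in shoot. With 3 libraries per group these values cannot show whether the numbers pair samples. With the replicate number as a block, 0 genes were called in root and 3737 in shoot. The log2FC with the block was 0.11 for BXL1 in root (edgeR adjusted p 0.951), 6.58 for BXL1 in shoot and 7.02 for the FtsH protease in shoot.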
